A study of Mus musculus with 86 samples.

Results

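Lung from mice given bleomycin was compared with lung from sham mice, both given the solvent DMSO, by RNA-seq of whole tissue. These are 9 of the 86 samples of a mouse study of MERTK, and they were chosen by their labels: 6 titled bleomycin with DMSO and 3 titled sham (normal) with DMSO. All mice were wild type per the labels, and the only agents named are bleomycin and DMSO in the first group and DMSO in the second. Another 3 sham and 6 bleomycin lung libraries with UNC569, an inhibitor of the receptor tyrosine kinase MERTK, shared the fit, so 18 lung libraries were fitted together. The labels give no dose, route, day after bleomycin, time of day, age or sex, and they do not tie samples to animals. Columns of the lung table name a group but not a sample, so libraries are numbered here as those columns are, from 0.

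Bleomycin is an anticancer drug that breaks DNA. In mouse lung it injures the alveolar epithelium and endothelium, draws in monocytes that become macrophages, and is followed by fibroblast activation and deposition of collagen, which is why it is widely used as a model of lung scarring. Fibroblasts lay down collagen, fibronectin and elastin, transforming growth factor beta drives that programme, and metalloproteinases remodel the product. MERTK, AXL and TYRO3, the TAM receptors, let macrophages take up dying cells through the bridging ligands GAS6 and protein S.

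Of the 3 sham libraries, 2 carried many heart muscle, fat and airway transcripts, and these values stand behind every comparison below. Myh6, the heart myosin heavy chain, was 312, 328 and 1.08 FPKM in sham libraries 0, 1 and 2, and 0 to 71.9 FPKM (median 1.86) in the 6 bleomycin libraries. Adipoq, the fat cell hormone adiponectin, was 87.1, 98.3 and 0 FPKM in the same sham libraries and 0 to 26.8 FPKM (median 0.0846) after bleomycin. Both were high in sham libraries 0 and 1, near 0 in sham library 2 and, within the bleomycin group, highest in library 5. Mean log2(FPKM + 1) over the heart muscle list was 5.43, 5.46 and 1.10 in the shams and 0.55 to 3.59 after bleomycin, and over the fat list 5.22, 5.13 and 1.20 against 1.17 to 4.02. The airway secretory list stood at 7.99, 7.96 and 4.28 against 4.46 to 5.90, and the motile cilia list at 4.50, 4.52 and 3.06 against 2.49 to 3.64. Summed over all 26 heart genes, sham libraries ranged from 101.1 to 4429 FPKM and bleomycin libraries from 54.6 to 872 FPKM. Over all 18 fat genes in the table the sums were 50.1 to 1232 FPKM and 51.9 to 538 FPKM. Of the defining fat markers Adipoq and Plin1 were listed at 0 in sham library 2, where Cfd was 0.333 and Cidec 1.57 FPKM. Among the heart markers, Tnnt2 was 58.8, 54.9 and 0.657 FPKM and Actc1 473, 441 and 53.6 FPKM in sham libraries 0, 1 and 2, while the atrial light chain Myl7 was at most 1.27 FPKM in any of the 9 libraries. Sham libraries 0 and 1 were also the closest pair of all 18 (Pearson r 0.976 across genes, against 0.915 and 0.918 with sham library 2). Lung markers were present throughout: the surfactant gene Sftpc was 1293, 1145 and 1461 FPKM in the shams and 659.7 to 1388 FPKM (median 1209) after bleomycin, and Ager, Pecam1 and Scgb1a1 of alveolar type 1, endothelial and club cells were all expressed. FPKM summed to 519376 to 650081 per lung library, of which the club cell gene Scgb1a1 took 4.87% to 20.8%, and 14255 to 14845 genes reached 1 FPKM. Median-of-ratios factors were 0.969 to 1.03, and read depth is unknown.

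**Figure D1:**
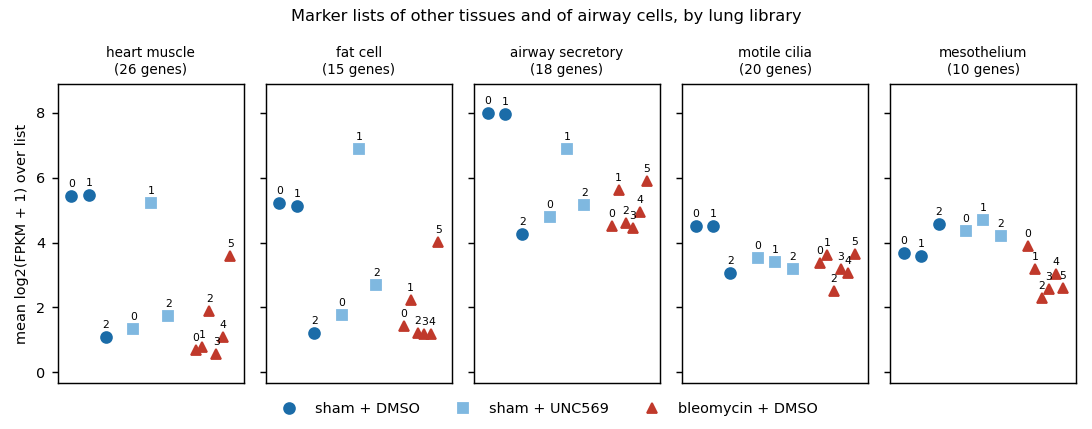
Mean log2(FPKM + 1) over 5 marker lists in each sham DMSO, sham UNC569 and bleomycin DMSO library, with numbers giving the library. Heart and fat lists were above 5 in sham DMSO libraries 0 and 1 and near 1 in library 2, and bleomycin library 5 was the highest of its group in both.

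Of 15935 genes with at least 1 FPKM in at least 3 lung libraries, 11 passed an adjusted p under 0.05 (0.069%), 4 higher (0.0251%) and 7 lower (0.0439%) in bleomycin lung. Levels are FPKM, read counts scaled for gene length and library depth, as deposited. A log2 difference is between group means of log2(FPKM + 1), bleomycin minus sham, ± its SE from limma, with 3 sham and 6 bleomycin libraries. It understates the change of genes near 1 FPKM. Adjusted p-values are Benjamini-Hochberg over all genes tested in limma. At an unadjusted p under 0.05, 3122 genes differed (19.6%), 1396 higher (8.76%) and 1726 lower (10.8%). All 6 bleomycin libraries lay above every sham library for 624 genes (3.92%) and below every sham library for 544 (3.41%). With the heart and fat list means as covariates, 0 genes passed in limma, 1867 had an unadjusted p under 0.05, and the smallest adjusted p was 0.0685. Leaving out sham libraries 0 and 1 left a single sham library and 1 gene past the threshold, 2610015P09Rik, and the lone sham is then assumed to vary like the other groups. The counts turned on single libraries. Higher and lower genes numbered 0 and 0 without sham library 0, 0 and 2 without sham library 1, and 646 and 1265 without sham library 2, which leaves the pair of libraries rich in heart and fat RNA as the only shams. Without bleomycin library 0 they numbered 158 and 84, and without bleomycin libraries 1, 2, 3, 4 and 5 they numbered 0 and 3, 3 and 6, 0 and 0, 2 and 5, and 1 and 2. When the 3 sham UNC569 libraries joined the 3 sham DMSO libraries as 1 reference, 118 genes were higher (0.741%) and 83 lower (0.521%). That reference mixes a drug into the controls and is used below only as a second value. It also holds another library rich in heart and fat RNA: in sham UNC569 libraries 0, 1 and 2, Myh6 was 2.19, 386 and 10.3 FPKM and Adipoq 0.673, 387 and 9.81 FPKM, and list means in library 1 were 5.21 for heart, 6.90 for fat, the highest of the 18 lung libraries, and 6.90 for airway secretory genes. Without sham DMSO libraries 0 and 1 and sham UNC569 library 1, the 3 shams left as 1 reference gave 0 higher and 0 lower genes in limma (0%), with 1768 genes at an unadjusted p under 0.05 and a smallest adjusted p of 0.0905. None of the genes given below as passing against both sham groups passed without those 3 libraries, a reference of 3 in place of 6. In whole lung, fewer cells of a type and less RNA per cell cannot be told apart.

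Genes for 3 matrix proteins and a kinase rose, and 2 clock genes were among the 7 that fell. Eln, which encodes elastin, the rubber-like core of elastic fibres (GRCm38 chromosome 5, 134702593 to 134747323, minus strand), was 1.66, 1.27 and 2.34 FPKM in sham libraries 0, 1 and 2 and 4.07 to 33.5 FPKM (median 16.8) in the 6 bleomycin libraries. It rose with log2 difference 2.54 ± 0.43, adjusted p = 0.0287, and the groups did not overlap, although bleomycin library 0 at 4.07 FPKM was close to the shams. Spon2, which encodes the secreted matrix protein spondin 2 (chromosome 5, 33198184 to 33218455, minus strand), was 7.05, 5.09 and 8.58 FPKM in the shams and 17.4 to 74.8 FPKM (median 44.98) after bleomycin (log2 difference 2.55 ± 0.41, adjusted p = 0.0233). Thbs1, which encodes thrombospondin 1, a matricellular protein that can activate latent transforming growth factor beta (chromosome 2, 118111876 to 118127133, plus strand), was 37.98, 37.03 and 70.3 FPKM and 127 to 196 FPKM (median 143) (log2 difference 1.66 ± 0.29, adjusted p = 0.038). Here sham library 2 was the highest sham, yet every bleomycin library was above it. Pim1, a kinase gene induced by cytokines through STAT factors (chromosome 17, 29490753 to 29496112, plus strand), was 18.6, 19.7 and 22.9 FPKM in the shams and 29.9 to 52.6 FPKM (median 40.9) after bleomycin (log2 difference 0.99 ± 0.16, adjusted p = 0.0233). With both covariates the 4 differences were 2.66, 2.37, 1.25 and 0.82 in that order, with adjusted p-values of 0.0835, 0.147, 0.16 and 0.147. Against sham library 2 alone they were 2.24, 2.24, 1.07 and 0.82, so each was higher than that library too, by limma without passing (adjusted p 0.838 to 0.866). All 4 were past the threshold against both sham groups together, where Eln differed by 2.05 ± 0.37 (adjusted p = 0.0306). In sham UNC569 libraries 0, 1 and 2, Eln was 5.98, 3.805 and 3.53 FPKM, Thbs1 131, 77.8 and 71.4 FPKM, Pim1 32.5, 33.9 and 28.1 FPKM and Spon2 14.7, 13.3 and 11.4 FPKM. These overlapped the bleomycin range for Eln, Thbs1 and Pim1 and lay below every bleomycin library for Spon2. Without the 3 libraries rich in heart and fat RNA, the difference from both sham groups was 1.74 ± 0.46 (adjusted p = 0.267) for Eln, 1.88 ± 0.43 (adjusted p = 0.213) for Spon2, 0.77 ± 0.28 (adjusted p = 0.351) for Thbs1 and 0.56 ± 0.17 (adjusted p = 0.299) for Pim1.

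The 7 genes that fell included the clock repressors Per2 and Per3, described with their pathway below. 2610015P09Rik, named Ccdc191 in GENCODE (chromosome 16, 43889800 to 43964314, plus strand), was 30.98, 4.65 and 38.3 FPKM in sham libraries 0, 1 and 2, and 1.55 to 3.496 FPKM (median 1.799) after bleomycin (log2 difference -2.69 ± 0.43, adjusted p = 0.0233). Sham library 1 stood well below the other shams, and the sham UNC569 libraries, at 2.11, 2.404 and 2.92 FPKM, were like the bleomycin ones. Against both sham groups together the difference was -1.45 ± 0.53 (adjusted p = 0.157). The gene overlaps Qtrt2 on the opposite strand, and the kit does not keep strand, so reads from the pair cannot be told apart. Mettl20, named Etfbkmt in GENCODE, a methyltransferase of the mitochondrial electron transfer flavoprotein (chromosome 6, 149139849 to 149151171, plus strand), was 45.1, 33.5 and 30.7 FPKM and 14.3 to 22.2 FPKM (median 18.5) (log2 difference -0.94 ± 0.15, adjusted p = 0.0233). Eef2k, the kinase that slows translation elongation (chromosome 7, 120842831 to 120907450, plus strand), was 11.1, 7.05 and 14.7 FPKM and 3.42 to 5.12 FPKM (median 4.13) (log2 difference -1.14 ± 0.19, adjusted p = 0.027). Znrd1as, a gene named as antisense to Znrd1 (chromosome 17, 36958592 to 36965625, plus strand), was 13.9, 14.2 and 12.1 FPKM and 6.53 to 8.89 FPKM (median 8.04) (log2 difference -0.72 ± 0.11, adjusted p = 0.0233), again with strand unknown. Tpd52l1, a tumor protein D52 family member (chromosome 10, 31332376 to 31445958, minus strand), was low everywhere, at 1.83, 2.26 and 2.76 FPKM and 0.317 to 1.09 FPKM (median 0.505) (log2 difference -1.04 ± 0.19, adjusted p = 0.0447). Mettl20 and Eef2k stayed past the threshold against both sham groups together, whereas 2610015P09Rik, Znrd1as and Tpd52l1 did not (adjusted p 0.157, 0.0636 and 0.0507). In sham UNC569 libraries 0, 1 and 2, Eef2k was 7.86, 5.81 and 5.08 FPKM, Znrd1as 8.83, 8.15 and 10.4 FPKM and Tpd52l1 1.02, 0.986 and 1.43 FPKM. These overlapped the bleomycin range for each of the 3 genes. Mettl20, at 36.5, 28.4 and 35.3 FPKM there, lay above every bleomycin library.

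**Figure D2:**
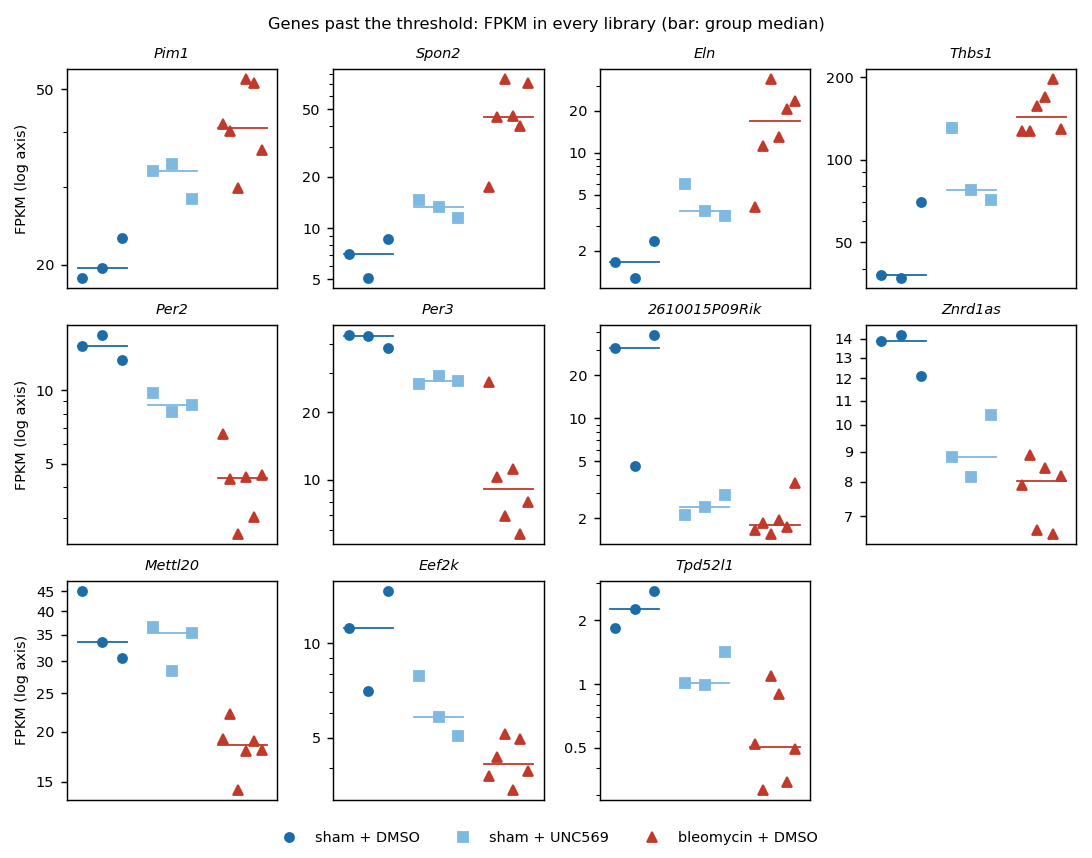
FPKM on log axes of the 11 genes past the threshold, with a point per library and a bar at the group median, for sham DMSO, sham UNC569 and bleomycin DMSO lung. No bleomycin library overlaps the sham DMSO libraries in any panel, while sham UNC569 libraries lie between them or with the bleomycin group for several genes, among them 2610015P09Rik.

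The circadian clock list held 2 of the 4 genes past the threshold among the 777 genes tested in 45 lists, Eln and Thbs1 being the others. The clock is a feedback loop in which BMAL1, encoded by Arntl, and CLOCK or NPAS2 bind E-boxes and switch on Per, Cry and Nr1d genes, whose products repress the loop, while DBP, TEF and HLF act on D-boxes and NFIL3 opposes them. Of 15 clock genes tested of 16 in the table, Per2 and Per3 fell and 0 rose by limma, 10 were lower and 3 higher at an unadjusted p under 0.05 (10.8% and 8.76% of all genes), and 6 were below and 1 above all shams in every bleomycin library (3.41% and 3.92% of all genes). For this list the list median was -1.17, against -0.94 with both covariates and -1.46 without sham libraries 0 and 1, beside -0.02, -0.02 and 0.01 over all genes. Per2 (chromosome 1, 91415982 to 91459324, minus strand) was 15.2, 16.8 and 13.3 FPKM in sham libraries 0, 1 and 2 and 2.58 to 6.604 FPKM (median 4.37) after bleomycin (log2 difference -1.66 ± 0.24, adjusted p = 0.0233). Per3 (chromosome 4, 151003652 to 151044665, minus strand) was 44.04, 43.7 and 38.4 FPKM and 5.76 to 27.2 FPKM (median 9.14) (log2 difference -1.95 ± 0.35, adjusted p = 0.0445), and it overlaps Camta1 on the same strand. The 3 sham DMSO libraries lay close together in both genes, although libraries 0 and 1 stand far from library 2 in heart and fat transcripts. Per2 was lower in sham UNC569 libraries 0, 1 and 2, at 9.74, 8.13 and 8.72 FPKM. Per3 was lower there too, at 26.7, 28.97 and 27.6 FPKM. These sham UNC569 values lay above every bleomycin library for Per2. For Per3, bleomycin library 0 at 27.2 FPKM lay within the sham UNC569 range.

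The D-box factors were low in 5 of the 6 bleomycin libraries. Dbp was 316, 309.6 and 368 FPKM in the shams, 303 in bleomycin library 0 and 9.79 to 57.5 FPKM in the other 5 (log2 difference -3.34 ± 0.83, adjusted p = 0.0781). Tef was 189, 185 and 187 FPKM in the shams, 134 in bleomycin library 0 and 35.01 to 68.4 FPKM in the other 5 (log2 difference -1.76 ± 0.33, adjusted p = 0.0578). Hlf was 12.8, 13.02 and 19.95 FPKM in the shams, 9.94 in bleomycin library 0 and 1.23 to 2.97 FPKM in the other 5 (log2 difference -2.16 ± 0.43, adjusted p = 0.06). Bleomycin library 0 thus sat near the shams in each of them. Going the other way, Arntl was 0.915, 1.12 and 0.934 FPKM in the shams and 1.39 to 8.34 FPKM (median 4.23) after bleomycin (log2 difference 1.38 ± 0.36, adjusted p = 0.0803), and Nfil3 was 5.67, 5.65 and 3.94 FPKM and 4.83 to 30.1 FPKM (median 14.4) (log2 difference 1.38 ± 0.39, adjusted p = 0.102), with library 0 the lowest of its group in both. Arntl and Nfil3 are named after their values were seen. Against both sham groups as 1 reference 7 clock genes passed as lower (Per2, Per3, Nr1d1, Nr1d2, Dbp, Tef and Hlf), beside 0.521% of all genes. As higher 2 passed (Arntl and Nfil3), beside 0.741% of all genes. In that fit Dbp differed by -3.24 ± 0.66 (adjusted p = 0.0376) and Arntl by 1.38 ± 0.28 (adjusted p = 0.0376). None of these passed without the 3 libraries rich in heart and fat RNA. There Per2 differed by -1.17 ± 0.26 (adjusted p = 0.213) and Per3 by -1.51 ± 0.37 (adjusted p = 0.267). Without bleomycin library 0 the main comparison gave the 158 higher and 84 lower genes stated above. The labels record no time of day of collection, so a difference in collection time and an effect of bleomycin cannot be told apart here. Clock itself is listed at 0 in all 18 lung libraries, which can be a failed estimate, so it has no value here.

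**Figure D3:**
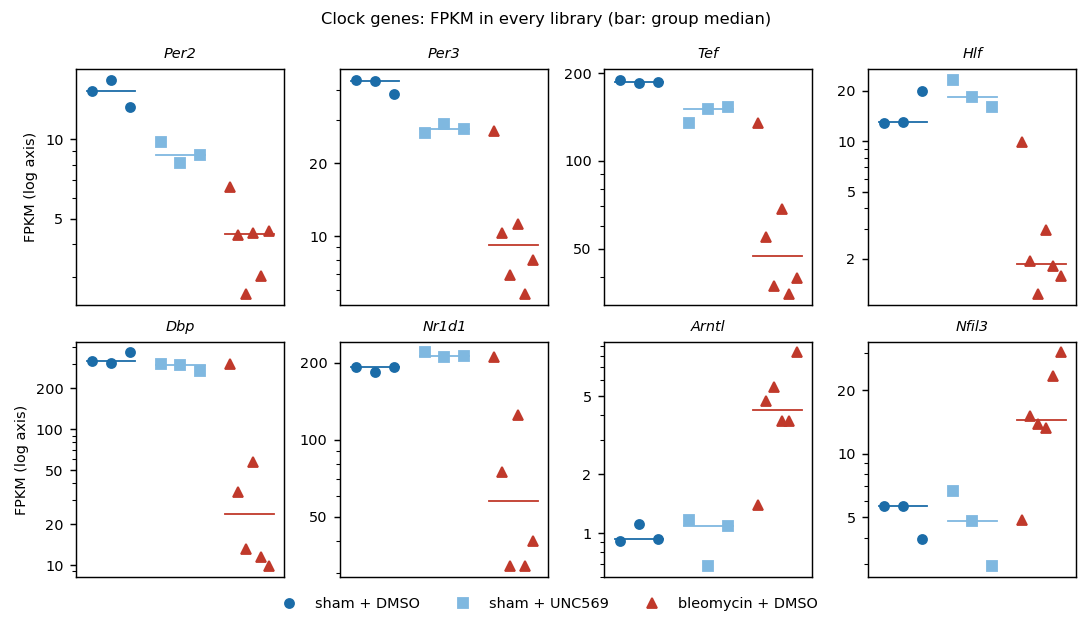
FPKM on log axes of 8 clock genes, a point per library and a bar at the group median. The 3 sham DMSO and 3 sham UNC569 libraries lie close together for Dbp and Nr1d1, 5 bleomycin libraries lie far below, and bleomycin library 0 (the left-most triangle) lies with the shams.

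Promoters of the clock list were read from RefSeq (GRCm38.p6) to show the letters through which these genes are known to be tied together. Searched were the 250 bases before the first listed start, for the E-box CACGTG and for the D-box TTATGTAA or TTATGCAA on both strands; the E-box reads the same on both. A promoter was found for 15 of 16 clock genes, Per2 not among them, and 5 held the E-box and 2 a D-box, beside 6.02% and 1.5% of 32851 promoters of the same length. Per3 and Tef are printed because both were low after bleomycin and each holds 1 of the 2 motifs. The Per3 window (chr4:151044666-151044915, minus strand) has 2 D-box matches and the Tef window (chr15:81802423-81802672, plus strand) 1 E-box match, in capitals, 5′ to 3′ on the gene's strand.
Per3: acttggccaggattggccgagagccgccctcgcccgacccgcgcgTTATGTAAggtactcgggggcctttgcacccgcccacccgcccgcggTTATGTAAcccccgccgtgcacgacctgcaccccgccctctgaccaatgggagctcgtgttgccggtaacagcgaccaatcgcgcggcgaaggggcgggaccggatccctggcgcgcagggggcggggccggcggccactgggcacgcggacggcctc
Tef: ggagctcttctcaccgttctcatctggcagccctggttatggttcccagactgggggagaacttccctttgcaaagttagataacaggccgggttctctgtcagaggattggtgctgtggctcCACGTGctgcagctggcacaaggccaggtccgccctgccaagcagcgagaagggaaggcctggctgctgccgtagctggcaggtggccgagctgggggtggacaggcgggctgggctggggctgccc
Per1 held both motifs, and Cry1, Bhlhe41 and Gm129 (Ciart) the E-box. A match describes letters and is no evidence that a factor binds there in lung.

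Collagen genes had a positive list median, and none passed the threshold. Of 17 fibrillar and associated collagen genes tested of 18 in the table, 0 passed in limma, 12 were higher and 0 lower at an unadjusted p under 0.05 (8.76% and 10.8% of all genes), and 5 lay above every sham in all 6 bleomycin libraries (3.92% of all genes). For these the list median was 0.74, against 0.61 with both covariates and 0.59 without sham libraries 0 and 1. Col3a1, a main collagen of soft tissue, was 67.1, 62.4 and 91.7 FPKM in the shams and 93.6 to 240.0 FPKM (median 153) after bleomycin (log2 difference 1.07 ± 0.25, adjusted p = 0.0733). Col1a1, the main scar collagen, named here after its values were seen, was 47.7, 47.3 and 49.9 FPKM in the shams and 51.9 to 249 FPKM (median 78.1) after bleomycin (log2 difference 0.90 ± 0.36, adjusted p = 0.184). All 6 bleomycin libraries were above the shams, but library 0 only just at 51.9 FPKM, while library 4 reached 249 FPKM. Col5a3, a minor fibril collagen, was 1.15, 1.01 and 0.806 FPKM against 1.73 to 12.8 FPKM (median 4.49) (log2 difference 1.48 ± 0.37, adjusted p = 0.0789), and Col6a2 was 85.6, 89.5 and 139 FPKM against 132 to 169 FPKM (median 149.7) (log2 difference 0.54 ± 0.15, adjusted p = 0.1). The Col6a2 difference was 0.09 against sham library 2 alone. Against both sham groups Col3a1 passed, at 0.95 ± 0.20 (adjusted p = 0.0383).

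In the matricellular and provisional matrix list Thbs1 rose, 9 of 16 genes tested (18 in the table) had an unadjusted p under 0.05 and were higher (8.76% of all genes), 0 were lower (10.8%), and 4 lay above all shams in every bleomycin library (3.92% of all genes). There the list median was 0.84, against 0.88 with both covariates and 0.73 without sham libraries 0 and 1. Tnc was 4.66, 3.85 and 5.43 FPKM in sham libraries 0, 1 and 2 and 5.299 to 87.2 FPKM (median 17.04) after bleomycin (log2 difference 1.90 ± 0.61, adjusted p = 0.125), and library 4 was again highest, at 87.2 FPKM. Tnc encodes tenascin C, a glycoprotein of healing wounds. Sparc was 871, 885 and 1532 FPKM in sham libraries 0, 1 and 2 and 1456 to 2335 FPKM (median 1833) after bleomycin (log2 difference 0.83 ± 0.21, adjusted p = 0.0789), and this collagen-binding protein gene was as high in sham library 2 as in bleomycin library 0. Fn1 was 26.9, 25.7 and 50.8 FPKM in sham libraries 0, 1 and 2 and 40.5 to 278 FPKM (median 75.8) after bleomycin (log2 difference 1.44 ± 0.53, adjusted p = 0.162), named here for fibronectin from the transitional and basal epithelium list.

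Elastic fibre and proteoglycan genes were mixed. Eln rose and 0 fell of 17 tested, 7 were higher and 1 lower at an unadjusted p under 0.05 (8.76% and 10.8% of all genes), and the list median was 0.31, against 0.25 with both covariates and 0.17 without sham libraries 0 and 1. Fbn1 was 10.9, 9.93 and 16.1 FPKM in sham libraries 0, 1 and 2 and 15.8 to 45.5 FPKM (median 22.97) after bleomycin (log2 difference 0.98 ± 0.26, adjusted p = 0.0925). Fbn1 encodes fibrillin 1, the scaffold on which elastin is laid. Ogn, a small leucine-rich proteoglycan of resting fibroblasts, went the other way, at 86.1, 79.7 and 105 FPKM in the shams and 30.5 to 86.3 FPKM (median 50.4) after bleomycin (log2 difference -0.86 ± 0.28, adjusted p = 0.124), with 5 of 6 bleomycin libraries below every sham. Against both sham groups it passed as lower, at -0.99 ± 0.22 (adjusted p = 0.0422). Basement membrane genes gave 0 calls in limma of 22 tested, 11 higher and 1 lower at an unadjusted p under 0.05, and the list median was 0.38, against 0.27 with both covariates and 0.03 without sham libraries 0 and 1. Col4a1, a network collagen of capillary and epithelial basement membranes, was 75.9, 72.6 and 133 FPKM in the shams and 119.6 to 353 FPKM (median 196) after bleomycin (log2 difference 1.22 ± 0.30, adjusted p = 0.0781). Its sham library 2 lay above bleomycin library 0 (119.6 FPKM), so the groups overlapped.

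Enzymes that build and cut the matrix gave no calls either. In collagen maturation and crosslinking 0 of 19 passed in limma, 8 were higher and 0 lower at an unadjusted p under 0.05 (8.76% and 10.8% of all genes), and the list median was 0.39, against 0.32 with both covariates and 0.20 without sham libraries 0 and 1. Loxl1 was 61.8, 55.04 and 82.1 FPKM in sham libraries 0, 1 and 2 and 92.4 to 131 FPKM (median 111) after bleomycin (log2 difference 0.74 ± 0.14, adjusted p = 0.0578), with all 6 bleomycin libraries above the shams. Loxl1 encodes a lysyl oxidase that crosslinks elastin. Serpinh1, the collagen chaperone HSP47, was 289, 289.9 and 476 FPKM in the shams and 336 to 947 FPKM (median 609) after bleomycin (log2 difference 0.79 ± 0.25, adjusted p = 0.121), and there sham library 2 lay within the bleomycin range. Of 24 metalloproteinase and plasminogen genes tested of 26, 0 passed in limma, 13 were higher and 1 lower at an unadjusted p under 0.05, 5 lay above all shams (3.92% of all genes), and the list median was 0.66, against 0.62 with both covariates and 0.66 without sham libraries 0 and 1. Adamts2, the procollagen N-proteinase, was 9.78, 11.7 and 15.2 FPKM and 19.2 to 41.7 FPKM (median 28.4) (log2 difference 1.18 ± 0.22, adjusted p = 0.0578). Mmp2, gelatinase A, was 46.6, 47.5 and 56.1 FPKM and 65.3 to 174 FPKM (median 144) (log2 difference 1.35 ± 0.35, adjusted p = 0.0803). Plat, tissue plasminogen activator, was 12.4, 8.804 and 16.5 FPKM and 18.7 to 30.7 FPKM (median 22.98) (log2 difference 0.92 ± 0.20, adjusted p = 0.06). For each of the 3, all 6 bleomycin libraries exceeded all 3 shams, and each passed against both sham groups, at 1.07 ± 0.18 (adjusted p = 0.0241), 1.33 ± 0.28 (adjusted p = 0.0376) and 0.73 ± 0.17 (adjusted p = 0.0427).

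**Figure D4:**
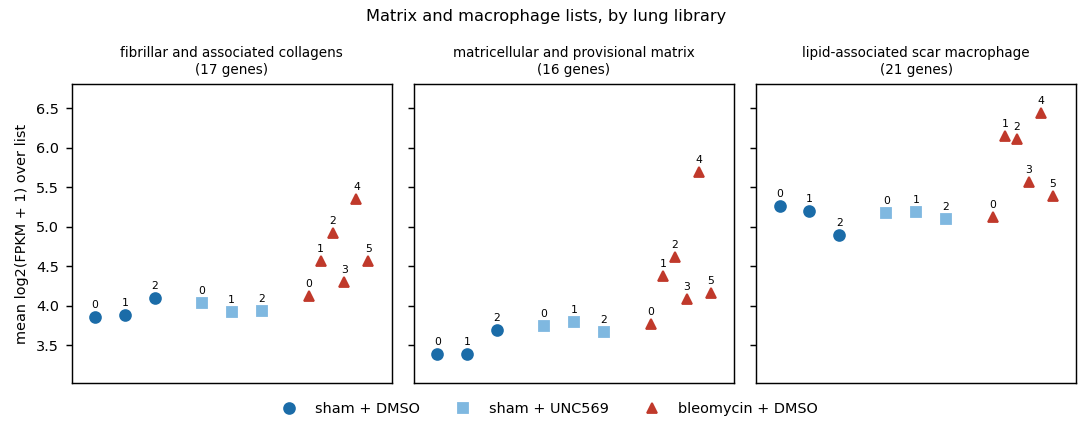
Mean log2(FPKM + 1) over 2 matrix lists and the lipid-associated scar macrophage list by library, with library numbers. Bleomycin library 0 lies nearest the shams and library 4 highest in each panel, so the bleomycin group is spread widely.

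Growth factor genes of the scarring programme gave no calls. Of 22 transforming growth factor beta genes tested, 0 passed in limma, 11 were higher and 1 lower at an unadjusted p under 0.05 (8.76% and 10.8% of all genes), 7 lay above all shams (3.92% of all genes), and the list median was 0.34, against 0.33 with both covariates and 0.15 without sham libraries 0 and 1. Tgfb1, the ligand best known for driving scarring, was 34.7, 28.5 and 52.05 FPKM in the shams and 52.6 to 84.2 FPKM (median 65.4) after bleomycin (log2 difference 0.78 ± 0.17, adjusted p = 0.0639). The sham UNC569 libraries, at 68.6, 53.1 and 48.9 FPKM, overlapped the bleomycin range. Tgfb3, a related ligand, was 25.1, 24.4 and 26.1 FPKM and 27.8 to 49.8 FPKM (median 39.02) (log2 difference 0.63 ± 0.15, adjusted p = 0.074), with sham UNC569 at 25.9, 25.5 and 22.4 FPKM, below every bleomycin library. Among 32 PDGF, FGF, WNT and BMP genes 0 passed in limma, 5 were higher and 2 lower at an unadjusted p under 0.05, and the list median was 0.14, against 0.03 with both covariates and -0.05 without sham libraries 0 and 1. Igf1, a growth factor made by macrophages and fibroblasts, was 5.06, 5.35 and 4.85 FPKM in the shams and 6.21 to 43.8 FPKM (median 14.8) after bleomycin (log2 difference 1.37 ± 0.45, adjusted p = 0.129).

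Smooth muscle and contractile genes were high in sham libraries 0 and 1, as the heart and airway lists were. Of 14 such genes tested of 18 in the table, 0 passed in limma, 4 were higher and 7 lower at an unadjusted p under 0.05 (8.76% and 10.8% of all genes), and the list median was -0.42, against -0.04 with both covariates and 0.14 without sham libraries 0 and 1. Acta2, smooth muscle actin and the usual myofibroblast marker, was 215, 213 and 74.7 FPKM in sham libraries 0, 1 and 2 and 54.5 to 124 FPKM (median 67.2) after bleomycin (log2 difference -0.97 ± 0.36, adjusted p = 0.162). The difference from sham library 2 alone was 0.03, which turns its sign. Myh11, the smooth muscle myosin, was 51.2, 52.2 and 20.4 FPKM and 10.1 to 25.7 FPKM (median 13.00) (log2 difference -1.36 ± 0.39, adjusted p = 0.1), with bleomycin library 5 the highest of its group. Among the 4 higher members, Cdh11 was 17.6, 18.1 and 30.9 FPKM in the shams and 25.8 to 45.7 FPKM (median 31.3) after bleomycin. Its log2 difference was 0.61 ± 0.22 (adjusted p = 0.152 in limma), and 0.11 against sham library 2 alone. The part of heart and airway tissue in these values was not tested.

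Markers of alveolar and resting fibroblasts gave 0 calls of 17 in limma, 1 higher and 3 lower at an unadjusted p under 0.05 (8.76% and 10.8% of all genes), and the list median was -0.35, against -0.38 with both covariates and -0.60 without sham libraries 0 and 1. Inmt, a methyltransferase abundant in lung fibroblasts, was 1959.9, 1913 and 3228 FPKM in the shams, 2854 in bleomycin library 0 and 227 in bleomycin library 4, with a bleomycin median of 836 FPKM (log2 difference -1.44 ± 0.61, adjusted p = 0.209). All bleomycin libraries but number 0 were below every sham for Inmt. Dpt, the 1 member higher at that p, was 156, 157 and 221 FPKM in the shams and 164 to 291 FPKM (median 270) after bleomycin. Its log2 difference was 0.49 ± 0.18 (adjusted p = 0.157 in limma), and 5 bleomycin libraries were above every sham. Against sham library 2 alone Dpt differed by 0.16. The mesothelium list, the lining of the lung surface, had 0 calls of 10 in limma, 5 lower and 0 higher at an unadjusted p under 0.05, and the list median was -0.96, against -1.03 with both covariates and -1.65 without sham libraries 0 and 1. Upk3b was 24.3, 24.2 and 87.1 FPKM in sham libraries 0, 1 and 2 and 1.39 to 39.96 FPKM (median 6.96) after bleomycin (log2 difference -2.08 ± 0.78, adjusted p = 0.168), and Msln, mesothelin, was 6.56, 4.45 and 16.3 FPKM and 0.938 to 6.02 FPKM (median 2.53) (log2 difference -1.27 ± 0.50, adjusted p = 0.183). Here sham library 2 was the highest and libraries 0 and 1 the lower shams, opposite to the heart genes.

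Alveolar epithelium showed no calls. Surfactant and alveolar type 2 genes had 0 of 18 past the threshold in limma, 2 higher and 0 lower at an unadjusted p under 0.05 (8.76% and 10.8% of all genes), and the list median was 0.03, against -0.08 with both covariates and 0.04 without sham libraries 0 and 1. Sftpc differed by -0.21 ± 0.21. Lcn2, a secreted siderophore-binding protein placed in that list, was 43.2, 40.7 and 41.5 FPKM in the shams and 41.4 to 261 FPKM (median 115) after bleomycin (log2 difference 1.46 ± 0.53, adjusted p = 0.155). Alveolar type 1 genes had 0 of 18 past it, 7 higher and 0 lower at an unadjusted p under 0.05, and the list median was 0.25, against 0.06 with both covariates and -0.18 without sham libraries 0 and 1. Cldn18, the alveolar tight junction claudin, was 149, 135 and 246 FPKM and 229 to 289 FPKM (median 258) (log2 difference 0.58 ± 0.19, adjusted p = 0.136), a difference of 0.05 against sham library 2 alone.

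Transitional and basal epithelial genes had a positive median and no calls. The list joins genes of alveolar cells caught between type 2 and type 1 states after injury with genes of basal cells. Of 18 tested of 19, 0 passed in limma, 7 were higher and 0 lower at an unadjusted p under 0.05 (8.76% and 10.8% of all genes), and the list median was 0.55, against 0.57 with both covariates and 0.69 without sham libraries 0 and 1. Sprr1a, a small proline-rich squamous protein, was 0.9900, 0.294 and 1.24 FPKM in sham libraries 0, 1 and 2 and 2.21 to 38.7 FPKM (median 20.5) after bleomycin (log2 difference 3.19 ± 0.72, adjusted p = 0.0718). It passed against both sham groups at 2.70 ± 0.60 (adjusted p = 0.0393). Areg, an epidermal growth factor receptor ligand, was 5.82, 4.36 and 5.15 FPKM and 5.54 to 18.5 FPKM (median 13.7) (log2 difference 1.02 ± 0.34, adjusted p = 0.136). Sfn, the epithelial 14-3-3 sigma, was 43.1, 37.4 and 30.8 FPKM and 42.4 to 229.9 FPKM (median 95.9) (log2 difference 1.22 ± 0.41, adjusted p = 0.136). Bleomycin library 0 was the lowest in all 3 genes and library 4 the highest.

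Airway genes were high in the shams that were high in heart and fat transcripts. Airway secretory genes had 0 of 18 past the threshold in limma, 9 lower and 0 higher at an unadjusted p under 0.05 (10.8% and 8.76% of all genes), and the list median was -1.45, against -0.46 with both covariates and 0.58 without sham libraries 0 and 1. Gsta3, a glutathione transferase of club cells, was 57.9, 54.4 and 38.5 FPKM in the shams and 6.53 to 32.6 FPKM (median 21.8) after bleomycin (log2 difference -1.37 ± 0.40, adjusted p = 0.105). It was the 1 member of 18 below all shams in every bleomycin library, beside 3.41% of all genes. Motile cilia genes had 0 of 20 past it, 13 lower and 0 higher at an unadjusted p under 0.05, and the list median was -0.84, against -0.46 with both covariates and 0.13 without sham libraries 0 and 1. Tekt1, a ciliary filament protein, was 23.5, 27.5 and 7.84 FPKM and 3.87 to 11.6 FPKM (median 7.42) (log2 difference -1.17 ± 0.37, adjusted p = 0.124). In both lists the sign turned when sham libraries 0 and 1 were left out. Endothelial genes had a positive median, with 0 of 27 past the threshold in limma, 8 higher and 0 lower at an unadjusted p under 0.05, and the list median was 0.34, against 0.17 with both covariates and -0.21 without sham libraries 0 and 1. Aplnr, the apelin receptor, was 22.3, 20.9 and 59.7 FPKM and 53.3 to 95.5 FPKM (median 69.6) (log2 difference 1.18 ± 0.28, adjusted p = 0.074), so sham library 2 lay within the bleomycin range while libraries 0 and 1 lay below it.

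**Figure D5:**
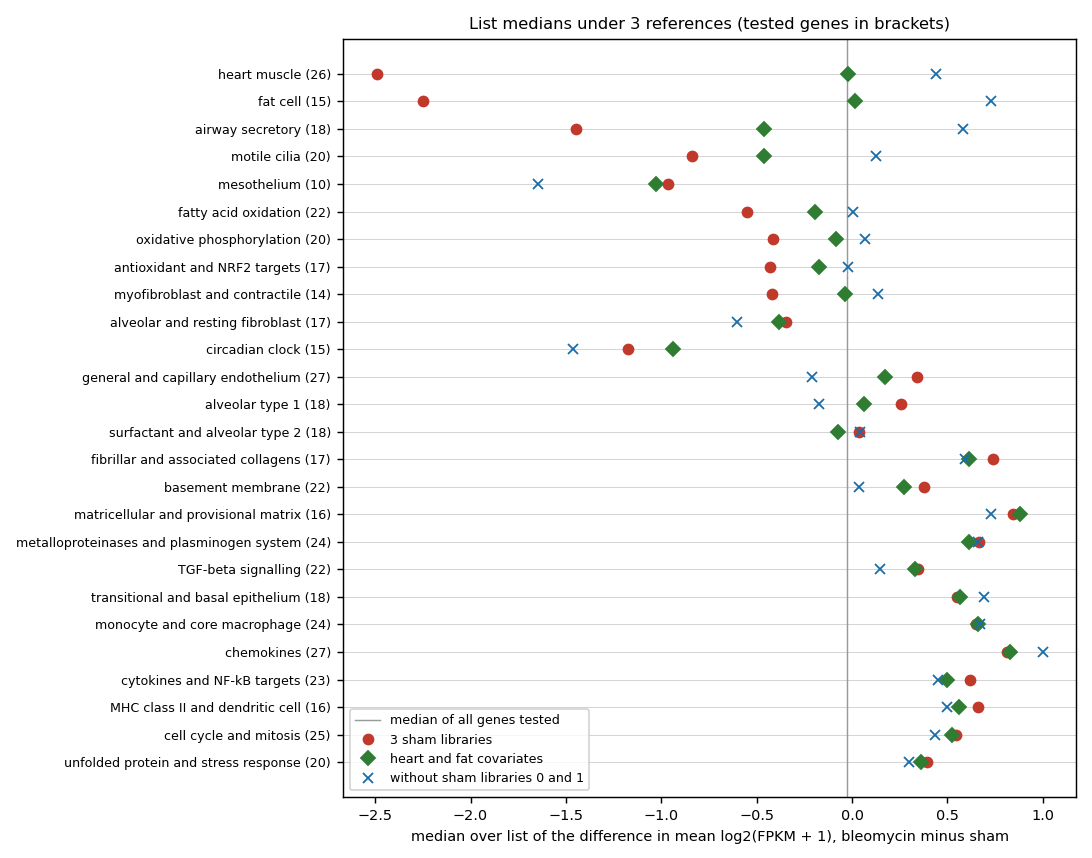
Median over each list of the difference in mean log2(FPKM + 1), bleomycin minus sham, with all 3 sham libraries, with heart and fat covariates, and without sham libraries 0 and 1. Heart, fat, airway secretory and cilia medians run from -2.49 to -0.84 with all shams and from 0.13 to 0.73 against sham library 2 alone, while fibrillar collagen, monocyte and core macrophage and chemokine medians stay between 0.59 and 1.00 in all 3. The heart and fat medians with covariates are near 0 by construction, because the covariates are the means of those lists.

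Macrophage genes had positive medians under each of the 3 references and no calls. Of 24 monocyte and core macrophage genes tested of 25, 0 passed in limma, 13 were higher and 0 lower at an unadjusted p under 0.05 (8.76% and 10.8% of all genes), 6 lay above all shams (3.92% of all genes), and the list median was 0.65, against 0.66 with both covariates and 0.67 without sham libraries 0 and 1. C1qc was 47.1, 50.8 and 43.6 FPKM in sham libraries 0, 1 and 2 and 56.9 to 224 FPKM (median 146) after bleomycin (log2 difference 1.48 ± 0.46, adjusted p = 0.119). C1qc encodes a chain of complement C1q, made by tissue macrophages. Plac8 was 6.78, 4.32 and 8.48 FPKM in sham libraries 0, 1 and 2 and 12.3 to 20.6 FPKM (median 14.9) after bleomycin (log2 difference 1.11 ± 0.25, adjusted p = 0.072). Plac8 marks monocytes, and its sham UNC569 values of 14.1, 9.09 and 13.3 FPKM overlapped the bleomycin range.

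Alveolar macrophage genes had 0 of 17 past the threshold in limma, 6 higher and 1 lower at an unadjusted p under 0.05 (8.76% and 10.8% of all genes), 5 above all shams (3.92% of all genes), and the list median was 0.30, against 0.38 with both covariates and 0.55 without sham libraries 0 and 1. Abcg1 was 15.8, 16.9 and 18.8 FPKM in sham libraries 0, 1 and 2 and 20.6 to 40.3 FPKM (median 37.5) after bleomycin (log2 difference 0.85 ± 0.22, adjusted p = 0.0824). Abcg1 exports cholesterol from lipid-laden alveolar macrophages. Chi3l3 (Chil3), the chitinase-like protein Ym1, was 45.7, 43.2 and 27.5 FPKM and 49.2 to 116 FPKM (median 93.3) (log2 difference 1.07 ± 0.32, adjusted p = 0.115), and near-identical copies of it exist whose reads the counting may have split. Both passed against both sham groups, at 0.84 ± 0.18 (adjusted p = 0.0383) and 1.20 ± 0.26 (adjusted p = 0.0383). The list of lipid-associated macrophages found in scars had 0 of 21 past it, 9 higher and 0 lower at an unadjusted p under 0.05, and the list median was 0.39, against 0.45 with both covariates and 0.51 without sham libraries 0 and 1. Spp1 was 37.7, 38.2 and 33.9 FPKM in sham libraries 0, 1 and 2 and 47.2 to 1719.7 FPKM (median 291) after bleomycin (log2 difference 2.65 ± 1.03, adjusted p = 0.178). Spp1 encodes osteopontin; all 6 bleomycin libraries were above the shams, but library 4 alone stood at 1719.7 FPKM and library 0 at 47.2. Trem2 was 2.75, 4.99 and 0.812 FPKM in sham libraries 0, 1 and 2 and 4.23 to 21.8 FPKM (median 15.6) after bleomycin (log2 difference 1.95 ± 0.65, adjusted p = 0.135), a lipid receptor gene for which bleomycin library 0 lay below sham library 1.

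The TAM receptors and their ligands showed 0 calls. Mertk, the target of UNC569, was 8.26, 10.3 and 16.1 FPKM in sham libraries 0, 1 and 2 and 9.203 to 13.8 FPKM (median 13.3) after bleomycin (log2 difference 0.12 ± 0.18, adjusted p = 0.75), so its shams spanned the whole bleomycin range. Axl was 24.8, 27.1 and 33.9 FPKM and 30.3 to 65.2 FPKM (median 38.8) (log2 difference 0.55 ± 0.24, adjusted p = 0.217), with 4 of 6 bleomycin libraries above all shams. Tyro3 was 13.2, 12.96 and 4.697 FPKM and 5.26 to 9.65 FPKM (median 7.604) (log2 difference -0.31 ± 0.25, adjusted p = 0.514). Gas6 was 133, 132 and 169.9 FPKM and 103 to 187 FPKM (median 163) (log2 difference 0.09 ± 0.17, adjusted p = 0.809), and Pros1, which encodes protein S, was 30.4, 32.1 and 41.1 FPKM and 33.8 to 54.7 FPKM (median 44.4) (log2 difference 0.33 ± 0.15, adjusted p = 0.233). Against sham library 2 alone Mertk, Gas6 and Tyro3 differed by -0.37, -0.14 and 0.56, each of the opposite sign. Of 19 TAM and efferocytosis genes tested of 23, 0 passed in limma, and 6 were higher and 0 lower at an unadjusted p under 0.05 (8.76% and 10.8% of all genes). In every bleomycin library 0 lay above and 0 below all shams, beside 3.92% and 3.41% of all genes, too small a list to tell from those shares. The list median was 0.16, against 0.03 with both covariates and -0.04 without sham libraries 0 and 1. Blmh, bleomycin hydrolase, which inactivates the drug, was 17.3, 19.3 and 26.1 FPKM and 18.04 to 25.6 FPKM (median 22.03) (log2 difference 0.08 ± 0.15, adjusted p = 0.825).

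Chemokine and cytokine genes had positive medians and no calls. Of 27 chemokine genes tested of 30, 0 passed in limma, 13 were higher and 0 lower at an unadjusted p under 0.05 (8.76% and 10.8% of all genes), 4 lay above all shams (3.92% of all genes), and the list median was 0.81, against 0.83 with both covariates and 1.00 without sham libraries 0 and 1. Ccl21a was 89.7, 75.6 and 87.1 FPKM in sham libraries 0, 1 and 2 and 135 to 285 FPKM (median 212) after bleomycin (log2 difference 1.27 ± 0.24, adjusted p = 0.0578). Ccl21a, which guides lymphocytes and dendritic cells and has near-identical copies, lay above the shams in all 6 bleomycin libraries and passed against both sham groups at 1.19 ± 0.20 (adjusted p = 0.0241). Ccl2, the monocyte attractant MCP-1, named after its values were seen, was 0.592, 0.3303 and 0.369 FPKM and 1.201 to 28.8 FPKM (median 3.93) (log2 difference 1.96 ± 0.66, adjusted p = 0.136), with 28.8 FPKM in library 4. Of 23 cytokine and NF-kB target genes tested of 31, 0 passed in limma, 13 were higher and 1 lower at an unadjusted p under 0.05, 9 lay above all shams (3.92% of all genes), and the list median was 0.62, against 0.50 with both covariates and 0.45 without sham libraries 0 and 1. Il4ra was 26.5, 24.9 and 40.4 FPKM in sham libraries 0, 1 and 2 and 41.4 to 88.6 FPKM (median 56.9) after bleomycin (log2 difference 0.97 ± 0.21, adjusted p = 0.0633). Il4ra encodes the receptor chain for interleukins 4 and 13. Osm was 1.16, 1.02 and 0.708 FPKM in sham libraries 0, 1 and 2 and 1.56 to 7.47 FPKM (median 4.51) after bleomycin (log2 difference 1.37 ± 0.34, adjusted p = 0.0789). Osm encodes oncostatin M. Il4ra and Osm passed against both sham groups, at 0.82 ± 0.18 (adjusted p = 0.0383) and 1.27 ± 0.28 (adjusted p = 0.0383). Complement and Fc receptor genes had 0 of 19 past the threshold in limma, 10 higher and 1 lower at an unadjusted p under 0.05, and the list median was 0.56, against 0.45 with both covariates and 0.77 without sham libraries 0 and 1.

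Antigen presentation genes had no calls, yet most of the list lay above the shams. Of 16 MHC class II and dendritic cell genes, 0 passed in limma, 11 were higher and 0 lower at an unadjusted p under 0.05 (8.76% and 10.8% of all genes), and 10 lay above all shams in every bleomycin library, beside 3.92% of all genes. There the list median was 0.66, against 0.56 with both covariates and 0.50 without sham libraries 0 and 1. H2-Aa was 225, 248 and 290.5 FPKM in sham libraries 0, 1 and 2 and 383 to 468 FPKM (median 446) after bleomycin (log2 difference 0.79 ± 0.22, adjusted p = 0.1), with sham UNC569 at 385, 273 and 366 FPKM. H2-Aa encodes a class II chain. H2-DMa was 28.9, 25.4 and 34.97 FPKM in sham libraries 0, 1 and 2 and 41.9 to 59.02 FPKM (median 48.1) after bleomycin (log2 difference 0.72 ± 0.18, adjusted p = 0.0781). H2-DMa encodes a chain that loads peptides onto class II. Fscn1 was 19.8, 14.4 and 31.05 FPKM in sham libraries 0, 1 and 2 and 32.9 to 90.9 FPKM (median 46.1) after bleomycin (log2 difference 1.27 ± 0.31, adjusted p = 0.0761). Fscn1, an actin-bundling protein of mature dendritic cells and other cell types, had sham UNC569 values of 25.6, 28.3 and 23.4 FPKM, below every bleomycin library. Measured against all 6 shams of both treatments, 3 of the 16 lay above in every bleomycin library, beside 0.897% of all genes. T and NK cell genes had 0 of 21 past the threshold in limma, 0 higher and 2 lower at an unadjusted p under 0.05, and the list median was 0.10, against -0.15 with both covariates and -0.11 without sham libraries 0 and 1. B and plasma cell genes had 0 of 18 past it, 3 higher and 0 lower, and the list median was 0.16, against 0.12 with both covariates and 0.15 without sham libraries 0 and 1. Igj was 11.2, 8.404 and 7.72 FPKM in sham libraries 0, 1 and 2 and 11.1 to 95.7 FPKM (median 51.7) after bleomycin (log2 difference 2.18 ± 0.83, adjusted p = 0.172). Igj encodes the joining chain of polymeric antibodies. Neutrophil genes had 0 of 11 tested (16 in the table) past the threshold in limma, 1 higher and 0 lower, and the list median was 0.13, against 0.27 with both covariates and 1.03 without sham libraries 0 and 1. Interferon-stimulated genes had 0 of 22, 4 higher and 0 lower, and the list median was 0.20, against 0.15 with both covariates and -0.07 without sham libraries 0 and 1.

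Genes of cell division, DNA damage and the secretory stress response had positive medians and no calls. Of 25 cell cycle genes, 0 passed in limma, 11 were higher and 0 lower at an unadjusted p under 0.05 (8.76% and 10.8% of all genes), 5 lay above all shams (3.92% of all genes), and the list median was 0.55, against 0.52 with both covariates and 0.44 without sham libraries 0 and 1. Ccnb1, cyclin B1, was 0.718, 0.892 and 0.962 FPKM and 1.32 to 9.11 FPKM (median 3.43) (log2 difference 1.34 ± 0.43, adjusted p = 0.126). Of 25 p53 target and senescence genes, 0 passed, 9 were higher and 1 lower at an unadjusted p under 0.05, and the list median was 0.40, against 0.33 with both covariates and 0.41 without sham libraries 0 and 1. Cdkn1a, the cyclin-dependent kinase inhibitor p21 and a direct p53 target, was 40.96, 38.5 and 33.1 FPKM in the shams, 46.2 in bleomycin library 0 and 145 to 193 FPKM in the other 5 (log2 difference 1.84 ± 0.42, adjusted p = 0.0728). The groups did not overlap, but library 0 lay close to the shams. Cdkn2b was 23.8, 22.1 and 35.5 FPKM in sham libraries 0, 1 and 2 and 41.9 to 56.7 FPKM (median 49.6) after bleomycin (log2 difference 0.87 ± 0.18, adjusted p = 0.06). Cdkn2b, the inhibitor p15, reached similar levels in all 6 bleomycin libraries, and Gdf15 was 2.92, 3.85 and 1.21 FPKM in sham libraries 0, 1 and 2 and 2.27 to 24.5 FPKM (median 15.1) after bleomycin (log2 difference 1.94 ± 0.60, adjusted p = 0.119), with library 0 inside the sham range. Of 20 unfolded protein response genes, 0 passed in limma, 10 were higher and 1 lower at an unadjusted p under 0.05, and the list median was 0.39, against 0.36 with both covariates and 0.30 without sham libraries 0 and 1. Manf was 67.8, 71.99 and 62.2 FPKM in sham libraries 0, 1 and 2 and 74.2 to 138 FPKM (median 131) after bleomycin (log2 difference 0.77 ± 0.20, adjusted p = 0.0803). Manf is a secreted protein of the endoplasmic reticulum. Hspa5 was 156, 159.5 and 168 FPKM in sham libraries 0, 1 and 2 and 156 to 394 FPKM (median 312) after bleomycin (log2 difference 0.79 ± 0.23, adjusted p = 0.111). Hspa5 encodes the chaperone BiP. Against both sham groups 6 of the 20 passed as higher, beside 0.741% of all genes, and 0 passed without the 3 libraries rich in heart and fat RNA.

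Mitochondrial and antioxidant genes had negative medians with the 3 shams and medians near 0 against sham library 2 alone. Fatty acid oxidation genes had 0 of 22 past the threshold in limma, 12 lower and 0 higher at an unadjusted p under 0.05 (10.8% and 8.76% of all genes), and the list median was -0.55, against -0.19 with both covariates and 0.01 without sham libraries 0 and 1. Acaa2 was 46.9, 46.5 and 33.6 FPKM in sham libraries 0, 1 and 2 and 16.1 to 31.8 FPKM (median 20.5) after bleomycin (log2 difference -0.95 ± 0.24, adjusted p = 0.0791). Acaa2 catalyses the last step of mitochondrial beta oxidation, and all 6 bleomycin libraries lay below the shams. Ppargc1a was 3.48, 2.95 and 2.37 FPKM in sham libraries 0, 1 and 2 and 0.696 to 1.44 FPKM (median 1.13) after bleomycin (log2 difference -0.90 ± 0.29, adjusted p = 0.126). Ppargc1a encodes PGC-1alpha, a coactivator of mitochondrial genes. Oxidative phosphorylation genes had 0 of 20 past it, 7 lower and 0 higher, and the list median was -0.41, against -0.08 with both covariates and 0.07 without sham libraries 0 and 1. Antioxidant and NRF2 target genes had 0 of 17 tested (19 in the table) past it, 5 lower and 0 higher at an unadjusted p under 0.05 (10.8% and 8.76% of all genes), 5 below all shams in every bleomycin library (3.41% of all genes), and the list median was -0.43, against -0.18 with both covariates and -0.02 without sham libraries 0 and 1. Cat, catalase, was 154, 166 and 127 FPKM in sham libraries 0, 1 and 2 and 64.6 to 103 FPKM (median 92.2) after bleomycin (log2 difference -0.79 ± 0.19, adjusted p = 0.074). Heart muscle is rich in transcripts of fatty acid oxidation and oxidative phosphorylation. The heart list itself had 0 of 26 past the threshold in limma, 18 lower and 0 higher at an unadjusted p under 0.05. Its list median was -2.49, against -0.02 with both covariates and 0.44 without sham libraries 0 and 1. For the fat list, with 0 of 15 past it, 3 lower and 0 higher, the list median was -2.25, against 0.02 with both covariates and 0.73 without sham libraries 0 and 1. The covariates are the means of the heart and fat lists themselves, so the medians of these lists with covariates are near 0 by construction. The part of those tissues in the metabolic genes was not tested.

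The response with DMSO was set against the response with UNC569. By limma 0 of 15935 genes differed between the responses at an adjusted p under 0.05 (0%), 1893 did at an unadjusted p under 0.05 (11.9%), and the smallest adjusted p was 0.220. The 5 genes with the smallest p were Sept6, AC153872.1, Capzb, Ift140 and Snn, with differences between responses of 0.86 ± 0.15, -1.27 ± 0.23, 0.92 ± 0.17, -1.14 ± 0.23 and 0.96 ± 0.19 log2. Among the genes described above, Eln differed between responses by 1.86 ± 0.60 (adjusted p = 0.35), Per3 by -1.04 ± 0.49 (adjusted p = 0.416) and Col3a1 by 0.66 ± 0.35 (adjusted p = 0.459). For 2610015P09Rik, Znrd1as, Thbs1 and Pim1 it was -2.95 ± 0.60, -0.77 ± 0.16, 1.87 ± 0.41 and 0.93 ± 0.22 (adjusted p = 0.272 in limma for each). Their bleomycin minus sham differences with UNC569 were only 0.26, 0.05, -0.21 and 0.06. The others of the 11 genes past the threshold kept their direction with UNC569, from -0.91 for Per3 to 1.33 for Spon2. Without sham UNC569 library 1, rich in heart and fat RNA, 0 genes differed between the responses by limma at an adjusted p under 0.05 as well.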

How the data were processed

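Per the labels' protocols, total RNA (Qiagen mini kit) was made into unstranded TruSeq RNA v2 libraries and read at 100 bases on a HiSeq. The tools FastQC, Trim Galore, STAR and edgeR appear without versions or roles, beside builds hg38 and mm10, per the submitters' processing notes. The deposited lung table holds FPKM for 38277 genes, and the tool that made them is not given in the sources used here. Read depth is unknown, so counting error cannot be given. Of the gene IDs, 94.9% matched GENCODE M21 (GRCm38).

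Genes with at least 1 FPKM in at least 3 of 18 lung libraries were fitted with limma 3.58.1 (R 4.3.3) on log2(FPKM + 1) with an intensity trend, 4 groups in 1 fit, tested first on simulated data, and adjusted by Benjamini-Hochberg. P-values measure spread between these libraries, which no label ties to separate animals. The covariates are each library's mean over the heart and fat lists.

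The members and lists were chosen with earlier results of these data known. Named are the TAM genes, heart and fat markers and Blmh, up to 5 members of a list by smallest p, and the 5 smallest p for the difference between responses. The rule also asked for the 10 largest rises and 10 largest falls that pass with both covariates, and 0 genes met it. Some genes the rule names are not reported here. Alternatives were a pseudocount of 0.1, no filter, at least 6 libraries, median-of-ratios scaling, only 2 groups, array weights, covariates, other references and leaving out libraries. Averaging sham libraries 0 and 1, leaving out bleomycin library 5 with them, an airway covariate, leaving out sham UNC569 library 1, and both sham groups as 1 reference without that library and sham DMSO libraries 0 and 1 were added after seeing the data.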

Additional observations from a re-analysis of the deposited data

Results flagged for a closer look

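In the bleomycin DMSO group of 6 libraries, 89 genes of the report were screened for a library far from the other 5. Dixon's criterion was used, on FPKM and not on log2 values. Chance meets it in about 1 of 20 groups only for normally spread values. FPKM are skewed upward, many of these genes vary together, and some were named after their values were seen. That rate is therefore no yardstick here, and the screen only describes libraries. The criterion was met in 21. Bleomycin library 0 was apart in 5 of them: Per3 at 27.2 FPKM (others 5.76 to 11.2), Dbp at 303 (9.79 to 57.5), Tef at 134 (35.01 to 68.4) and Hlf at 9.94 (1.23 to 2.97) were higher there, and Cdkn1a at 46.2 (145 to 193) was lower.

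Bleomycin library 4 was apart and highest in 7: Col1a1 at 249 FPKM (others 51.9 to 121), Col5a3 at 12.8 (1.73 to 5.22), Tnc at 87.2 (5.30 to 31.8), Sfn at 230 (42.4 to 105), Plac8 at 20.6 (12.3 to 15.1), Spp1 at 1720 (47.2 to 490) and Ccl2 at 28.8 (1.20 to 7.97).

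Bleomycin library 5 was apart and highest in 9: 2610015P09Rik at 3.50 FPKM (others 1.55 to 1.95), Myh11 at 25.7 (10.1 to 15.1), Myh6 at 71.9 (0 to 10.4), Tnnt2 at 20 (0.257 to 4.58), Actc1 at 196 (26.5 to 52.5), Adipoq at 26.8 (0 to 3.19), Cfd at 132 (0 to 19.1), Plin1 at 8.95 (0 to 0.653) and Cidec at 20.4 (0.783 to 7.32).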

How the results depend on the processing

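The 4 higher and 7 lower genes changed in number under most settings: 18 higher with a pseudocount of 0.1, 2 without a filter, 11 with median-of-ratios scaling, 1 and 1 (higher and lower) with only the 2 DMSO groups, 1555 and 2282 with array weights, 0 and 0 with the heart covariate, 2 and 1 with the fat covariate, 0 and 0 with both, 1 and 1 with the airway covariate, 0 and 1 without sham libraries 0 and 1, with these averaged, or also without bleomycin library 5, 118 and 83 with the sham UNC569 libraries added, 0 and 0 with these added and the 3 libraries rich in heart and fat RNA left out, and 9 higher without sham UNC569 library 1. These counts are of any genes that passed, which need not be among the 11 of the main fit. Of those 11, 0 still passed with only the 2 DMSO groups, 1 with the fat covariate and 1 with the airway covariate. With the sham UNC569 libraries added 8 of them passed, and with median-of-ratios scaling or array weights 11. Leaving out 1 library gave 0 to 646 higher and 0 to 1265 lower genes. List members past the threshold, 2 higher and 2 lower, became 5 higher with a pseudocount of 0.1, 0 and 1 without a filter, 4 higher with median-of-ratios scaling, 226 and 142 with array weights, 38 and 13 with the larger reference, 0 and 0 with only the 2 DMSO groups, with each covariate, without or with averaged sham libraries 0 and 1 and with the larger reference less the 3 rich libraries, and 0 to 103 and 0 to 95 with 1 library left out. Genes whose response was larger or smaller with DMSO, 0 and 0, became 579 and 592 with array weights, 1 and 1 with the fat covariate, 1 larger with the airway covariate, and 1 smaller without sham libraries 0 and 1, with them averaged, or also without bleomycin library 5. With 1 library left out they were 0 to 283 and 0 to 408. The causes were not tested.

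Of 1925 pairs of a gene and a setting, 1585 kept direction and side of the threshold, 155 lost it, 159 gained it and 26 turned sign. These pairs cover 77 genes in 25 settings, and only the 11 genes past the threshold in the main fit could lose it. All 155 losses are theirs, and most pairs that kept their side are of genes that passed in neither fit. Mertk turned to -0.13 with the heart, -0.0476 with the fat, -0.15 with both and -0.13 with the airway covariate, -0.37 without sham libraries 0 and 1, -0.0053 with them averaged, -0.30 also without bleomycin library 5 and -0.0744 without sham library 0 (0.3667 without sham library 2). Tyro3 turned to 0.0356 (heart), 0.0042 (both), 0.14 (airway), 0.56 (without sham libraries 0 and 1) and 0.49 (also without bleomycin library 5). Gas6 turned to -0.14 and -0.17 in the last 2 and -0.0024 with the airway covariate. Blmh turned to -0.25 and -0.22 in the same 2, -0.0065 with the pair averaged and -0.0427 without sham library 0 (0.2413 without sham library 2), and Acta2 to 0.0318 without sham libraries 0 and 1. With the larger reference less the 3 rich libraries, Mertk turned to -0.091, Tyro3 to 0.1483, Gas6 to -0.0053, Blmh to -0.0209 and Tekt1 to 0.0226. Of 1025 pairs of a list median and a setting, 142 moved by more than the SD of the bleomycin libraries. No paired analysis was possible because the table's columns carry no sample numbers of the labels. With 3 shams of which 2 are alike, and no read counts, low genes and small differences are the least certain.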
